A study of Mus musculus with 4 samples.

Results

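Mdh1 and Ldhb are the genes of 2 NAD-linked enzymes of energy metabolism, each followed here through 1 Ensembl mouse transcript, ENSMUST00000102874 for Mdh1 and ENSMUST00000032373 for Ldhb. These 2 transcripts were chosen by their IDs from 23175 transcripts with a count in at least 1 library, and both were counted in all 4 libraries. None of their values entered the rule, but earlier results of these data were known when they were chosen. The pairing of ID and gene symbol came with that choice. The deposited tables carry IDs only, and the reference tables used here list the genes (Mdh1, ENSMUSG00000020321.15, and Ldhb, ENSMUSG00000030246.11) but none of their transcripts, so the pairing was not checked.

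The study sequenced ribosome footprints, the RNA fragments that a ribosome shields from RNase, from the brain of 21-day-old (P21) mice of the C57BL/6J strain. Both groups carried a transgene for a GFP-tagged ribosomal protein, Snap25::eGFP-RpL10a in the neuron group and Aldh1l1::eGFP-RpL10a in the astrocyte group. Tagged ribosomes were pulled down with GFP antibodies, and the bound RNA was digested on the beads. Each group had 2 libraries, each from 2 pooled brains, so every comparison between cell types rests on 2 pools against 2, and what a group samples is set by where its transgene is active. Library totals ran from 7210269 to 12833187 counts. The labels were not checked against neuron or astrocyte marker genes, and other genes of the same pathways were not described, because the reference tables matched 0 transcript IDs to symbols.

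Mdh1 encodes cytosolic malate dehydrogenase, which interconverts malate and oxaloacetate and serves the malate-aspartate shuttle that carries reducing equivalents into mitochondria. Ldhb encodes the H subunit of lactate dehydrogenase, which interconverts lactate and pyruvate. Both mRNAs are known for stop codon readthrough. A small share of ribosomes decodes the stop codon as an amino acid and adds an extension that ends in a peroxisomal targeting signal, so that some enzyme enters peroxisomes, where it can reoxidise NADH from fatty acid oxidation. Footprints between the normal stop codon and the next stop codon in frame are the usual trace of this event in such data.

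The counts are given for 4 regions of each transcript, named a, b, c and d. The sources used here do not say what the letters stand for, so no region is called coding sequence, untranslated region or readthrough extension below, and a count in region c is not read as a readthrough event. Region b held 95.7% of all Mdh1 counts and 91.6% of all Ldhb counts.

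Mdh1 and Ldhb differed between the cell types in opposite directions, each by less than the test required. Mdh1 measured 925.7 and 848.2 CPM (the sum over the 4 regions, scaled to a common library total) in astrocyte 1 and 2, and 1108 and 1273 CPM in neuron 1 and 2. Both neuron libraries lay above both astrocyte libraries. Ldhb measured 737.3 and 722.9 CPM in astrocyte 1 and 2, and 542.4 and 573.0 CPM in neuron 1 and 2. For this transcript both astrocyte libraries lay above both neuron libraries. By rank among all transcripts, Mdh1 stood between 36 and 79 and Ldhb between 102 and 178 in the 4 libraries. These ranks count footprints per transcript, not per length, and do not order the 2 enzymes by synthesis.

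For Mdh1 the astrocyte mean was 887.0 ± 54.8 CPM and the neuron mean 1190 ± 117 CPM (SD, n = 2 libraries per group). The log2 fold change, neuron over astrocyte, was 0.31 (SE 0.168, edgeR quasi-likelihood adjusted p = 0.253). For Ldhb the astrocyte mean was 730.1 ± 10.2 CPM and the neuron mean 557.7 ± 21.7 CPM (SD, n = 2 libraries per group), and the log2 fold change was -0.51 (SE 0.153, edgeR quasi-likelihood adjusted p = 0.0579). Neither passed the adjusted threshold of 0.05. Of 18819 transcripts tested, 12.9% were called for a higher astrocyte level and 4.24% for a higher neuron level. Groups without overlap in CPM were common among them, at 40.2% with neuron above astrocyte and 25.6% with the reverse, so the separation of the groups by itself says little of Mdh1 or Ldhb. In such pooled pulldowns, a change in which tagged cells contribute and a change per cell cannot be told apart. Nor can mRNA level and ribosomes per mRNA, since only footprints are counted here. The Ldhb value sat at the threshold: DESeq2 gave adjusted p = 0.0468, edgeR without the filter on low counts 0.0474, and edgeR limited to transcripts averaging 10 CPM or more 0.0466, in fits that called 15.0%, 16.1% and 16.7% of all their transcripts. With 1 neuron library left out, when the spread comes from the astrocyte pair alone, both transcripts passed, as did 46.3% of all transcripts tested without neuron 1 and 33.1% without neuron 2. Mdh1 then had edgeR adjusted p = 3.61e-08 without neuron 1 and 0.00284 without neuron 2, and Ldhb 5.04e-11 and 7.1e-12. With 1 astrocyte library left out neither passed: Mdh1 had edgeR adjusted p = 0.721 without astrocyte 1 and 0.858 without astrocyte 2, and Ldhb 0.542 and 0.582.

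The balance between the 2 transcripts can be read within each library, where neither scaling nor transcript length enters the comparison of cell types. Mdh1 had 1.337 and 1.237 region b counts for each Ldhb region b count in astrocyte 1 and 2 (95% intervals 1.288 to 1.388 and 1.192 to 1.283). In neuron 1 and 2 it had 2.130 and 2.261 (2.047 to 2.216 and 2.198 to 2.326). The balance was thus tilted further toward Mdh1 in both neuron libraries than in either astrocyte library, by more than the spread between libraries of a group. On the log2 scale the astrocyte mean was 0.363 ± 0.0796 and the neuron mean 1.13 ± 0.0611 (SD, n = 2 libraries per group), a difference of 0.77 or 1.71-fold, with a two-sided exact permutation p = 0.333, the smallest that 2 against 2 libraries can give. This ratio was chosen after the values of both transcripts were seen.

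**Figure D1:**
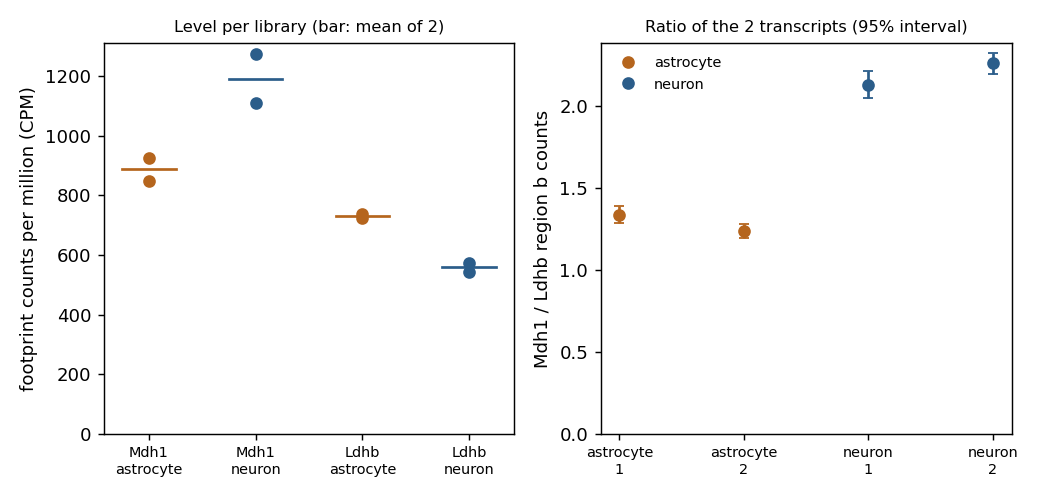
Left, footprint counts (CPM) of Mdh1 and Ldhb (y axis) by cell type, 1 point per library and a bar at the mean of 2 libraries. Right, the ratio of Mdh1 to Ldhb region b counts in each library with its exact 95% interval. Mdh1 lies higher in both neuron libraries and Ldhb in both astrocyte libraries, and the ratio runs from 1.237 to 1.337 in astrocyte and from 2.130 to 2.261 in neuron libraries.

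Among transcripts that averaged 50 CPM or more, the one whose relative levels over the 4 libraries were nearest to Mdh1 was ENSMUST00000097837, at 144.2, 131.9, 172.5 and 197.8 CPM in astrocyte 1, astrocyte 2, neuron 1 and neuron 2. Its distance to Mdh1, over log2 CPM values centred on their own mean, was 0.00381, the smallest of 4830. The nearest to Ldhb was ENSMUST00000108196, at 143.8, 138.0, 104.7 and 109.2 CPM in the same order, with a distance of 0.0272. With 4 libraries in 2 groups, near-equal profiles describe the levels only.

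Region c separated the 2 enzymes. Mdh1 had region c counts in every library, with 22 and 45 in the astrocyte libraries 1 and 2 and with 33 and 50 in the neuron libraries, beside 6413, 6388, 7677 and 15712 region b counts in the same order. Ldhb had 1 region c count in astrocyte 1 and none in the other 3 libraries, beside 4797, 5166, 3605 and 6949 region b counts. So nearly all region c counts of the pair, 150 of Mdh1 against 1 of Ldhb, fell on the malate dehydrogenase transcript.

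As a percentage of region b, Mdh1 region c stood at 0.343% in astrocyte 1 (exact 95% interval 0.215 to 0.520) and 0.704% in astrocyte 2 (0.513 to 0.944). It stood at 0.430% in neuron 1 (0.296 to 0.604) and 0.318% in neuron 2 (0.236 to 0.420). Astrocyte 2 was the highest library and astrocyte 1 lay between the neuron libraries, so the cell types overlapped. The astrocyte mean was 0.524% ± 0.256 and the neuron mean 0.374% ± 0.0789 (SD, n = 2 libraries per group, two-sided exact permutation p = 0.667). Groups that do not overlap in this percentage were found in 5.65% of the well-counted transcripts (those with 1000 or more region b counts, 7382 in all) with astrocyte above neuron and in 6.38% with neuron above astrocyte. In the fit of the region c to region b ratio over 292 transcripts, Mdh1 had a log2 change, neuron over astrocyte, of -0.51 (SE 0.415, edgeR quasi-likelihood adjusted p = 0.61). Of the 292, 0% were called in either direction, while 40 had an unadjusted p under 0.05. The sign rested on astrocyte 2: without it the log2 change was 0.08 (edgeR adjusted p = 0.945) and the difference of the percentages, neuron minus astrocyte, 0.031 percentage points. The difference between the cell types was smaller than the spread between the astrocyte libraries.

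For Ldhb, the single count came to 0.0208% of region b in astrocyte 1 (exact 95% interval 0.000528 to 0.116). A count of 0 was given a limit of 3 counts. That limit is 0.0581% of region b in astrocyte 2, 0.0832% in neuron 1 and 0.0432% in neuron 2. The exact 95% intervals reach higher, to 0.0714% in astrocyte 2, 0.102% in neuron 1 and 0.0531% in neuron 2. These limits and the intervals cover counting error only, and footprints amplified by PCR are not all independent molecules. In each library the upper end of the Ldhb interval, at most 0.116%, lay below the lower end of the Mdh1 interval, at least 0.215%. Had Ldhb carried region c at the Mdh1 percentage of the same library, it would have had 16.5, 36.4, 15.5 and 22.1 counts in astrocyte 1, astrocyte 2, neuron 1 and neuron 2, together 90.5. In astrocyte samples the Mdh1 percentage was 52.1 times that of Ldhb, with a counting interval of 9.04 to 2090. In neuron samples Ldhb had no count, and the Mdh1 percentage was 12.5 times the limit of 3 Ldhb counts over the group. That value leaves out the counting error of Mdh1, so it is not the lower end of an interval. The mean difference, Mdh1 minus Ldhb, was 0.444 ± 0.181 percentage points (SD, n = 4 libraries) with Mdh1 higher in 4 of 4, two-sided exact permutation p = 0.125, the smallest that 4 pairs can give. The lengths of the regions are not in the files, so a shorter region c of Ldhb and fewer footprints per base cannot be told apart.

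Region d showed the other order, with Ldhb above Mdh1, in all libraries but astrocyte 1. Ldhb had 5 and 12 region d counts in the astrocyte libraries 1 and 2 and then 6 and 9 in the neuron libraries. These were 0.104% (exact 95% interval 0.0338 to 0.243), 0.232% (0.120 to 0.406), 0.166% (0.061 to 0.363) and 0.130% (0.0592 to 0.246) of region b. The 4 intervals overlap one another, and so did the groups, with an astrocyte mean of 0.168% ± 0.0905 and a neuron mean of 0.148% ± 0.0261 (SD, n = 2 libraries per group, two-sided exact permutation p = 1). Groups without overlap in region d were found in 8.56% of the 7382 well-counted transcripts with astrocyte above neuron and in 9.94% with neuron above astrocyte.

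Mdh1 had 10 region d counts in astrocyte 1 but 1, 2 and 4 in astrocyte 2, neuron 1 and neuron 2. The percentage of region b was 0.156% in astrocyte 1 (exact 95% interval 0.0747 to 0.287), against 0.0157% (0.000396 to 0.0873), 0.0261% (0.00315 to 0.0941) and 0.0255% (0.00694 to 0.0652) in the other 3. Astrocyte 1 therefore held 10 of the 17 Mdh1 region d counts and stood apart from its own replicate, while the cell types did not separate. The astrocyte mean was 0.0858% ± 0.0992 and the neuron mean 0.0258% ± 0.00042 (SD, n = 2 libraries per group, two-sided exact permutation p = 1). Neither transcript had enough region d counts to enter the fit of the region d to region b ratio, in which 0% of 554 transcripts were called higher in astrocyte and 0.181% higher in neuron libraries. Between the transcripts, Mdh1 minus Ldhb was -0.102 ± 0.113 percentage points (SD, n = 4 libraries), with Mdh1 lower in all libraries but astrocyte 1 and a two-sided exact permutation p = 0.25. As for region c, region lengths could not be taken into account.

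Regions c and d thus stood in opposite order in the 2 transcripts. Of the sum of region c and region d counts, region c made up 68.8% in astrocyte 1 (exact 95% interval 50.0 to 83.9), 97.8% in astrocyte 2 (88.5 to 99.9), 94.3% in neuron 1 (80.8 to 99.3) and 92.6% in neuron 2 (82.1 to 97.9) for Mdh1. For Ldhb it made up 16.7% in astrocyte 1 (0.421 to 64.1) and 0% in the other libraries, with upper ends of 26.5%, 45.9% and 33.6% in astrocyte 2, neuron 1 and neuron 2. Region c exceeded region d in every library for Mdh1, an order seen in 4.67% of the 7382 well-counted transcripts. Region d exceeded region c in every library for Ldhb, an order seen in 11.3%. Depth bounds both shares, since 42.3% of the 7382 had no region c count in any library and 27.3% no region d count. Transcripts without region c counts could not show the first order, and those without region d counts could not show the second. Either order needs counts of its larger region in every library.

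**Figure D2:**
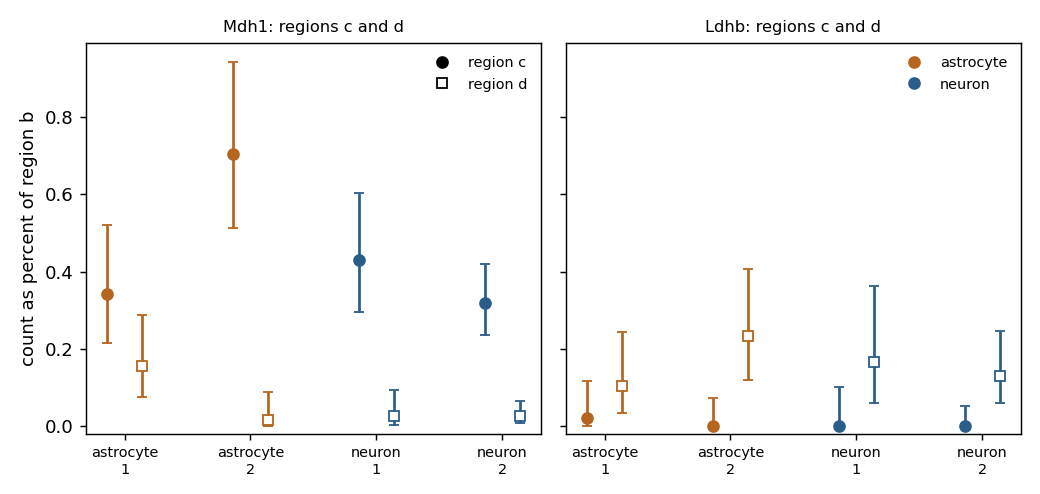
Counts of region c (filled circles) and region d (open squares) as a percentage of region b (y axis) in each library for Mdh1 (left) and Ldhb (right), with exact 95% intervals that cover counting error only. Mdh1 region c lies between 0.318% and 0.704%, with astrocyte 2 highest. Ldhb region c is at or near 0 in every library while its region d lies between 0.104% and 0.232%.

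Against other transcripts, Mdh1 stood high for region c, while its place for region d depended on whether libraries were pooled. Over all libraries its region c came to 0.414% of region b (exact 95% interval 0.351 to 0.487), where the median of the 7382 transcripts was 0.0386% and the upper quartile 0.129%. In all, 592 of them, or 8.02%, had a higher percentage than Mdh1, and within single libraries the share ran from 6.39% to 13.2%. Region lengths were not known, so this place and those below compare counts, not footprints per base. Its region d came to 0.047% of region b (0.0274 to 0.0752), with 64.7% of transcripts higher and a median of 0.0944%. Within single libraries, however, the share of transcripts with a higher region d percentage was 33.5% and 40.6% in astrocyte 1 and 2 and 45.8% and 49.5% in the neuron libraries, so no side of the median is given for it. Ldhb region d came to 0.156% (0.107 to 0.220), above that median, with 37.6% of transcripts higher over all libraries and 28.9% to 37.4% within single libraries. These intervals on summed counts, and that for Ldhb region c below, cover counting error only. They leave out the spread between libraries, in which Mdh1 region c ran from 0.318% to 0.704%.

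Ldhb region c came to 0.00487% of region b (exact 95% interval 0.000123 to 0.0272). No region c count at all was found in 42.3% of the 7382 transcripts, 3122 in all. Most of these had fewer region b counts than Ldhb, and 21 had at least as many. Among the 145 transcripts with at least as many region b counts as Ldhb, 20517, the median region c count was 20. Of the 145, 23 or 15.9% had at most 1, Ldhb included, so at this depth the low value belonged to a minority. Mdh1 belongs to the same 145, of which 9 had a higher region c percentage than Mdh1.

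**Figure D3:**
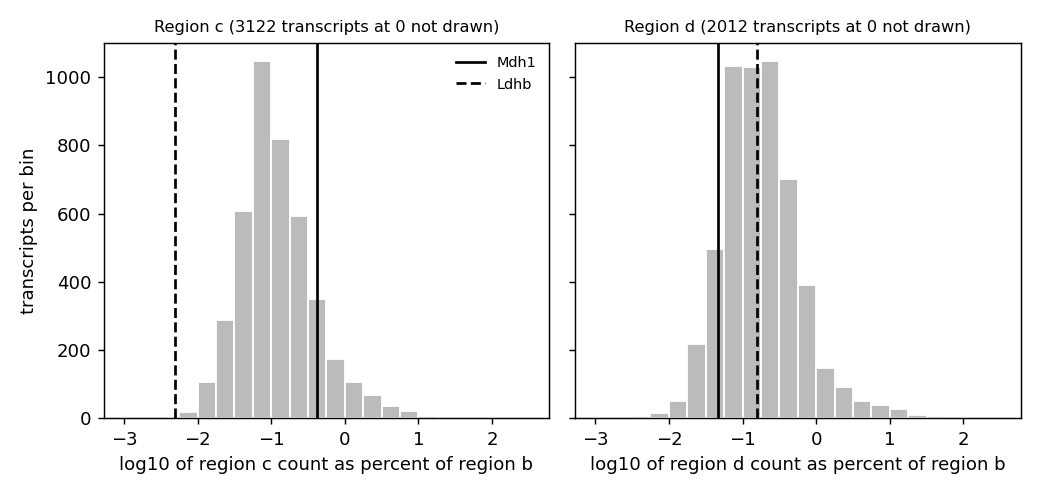
Numbers of transcripts (y axis) by the log10 of their region c (left) and region d (right) count as a percentage of region b, over the 4 libraries together, for transcripts that had 1000 or more region b counts. Transcripts with no count in the region, 3122 for region c and 2012 for region d, are not drawn. The solid line marks Mdh1, to the right of most transcripts for region c, and the dashed line Ldhb, at the left edge for region c and near the middle for region d.

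Region a was the second largest region of both transcripts and was relatively higher in astrocyte libraries for both. Ldhb had 574, 582, 300 and 396 region a counts in astrocyte 1, astrocyte 2, neuron 1 and neuron 2. In the same order these were 11.97% (exact 95% interval 10.95 to 13.05), 11.27% (10.32 to 12.28), 8.32% (7.37 to 9.36) and 5.70% (5.14 to 6.31) of region b. Both astrocyte libraries lay above both neuron libraries, and the intervals of neuron 1 and neuron 2 did not meet, so the neuron pair differed by more than counting error. The astrocyte mean was 11.6% ± 0.495 and the neuron mean 7.01% ± 1.85 (SD, n = 2 libraries per group, two-sided exact permutation p = 0.333, the smallest possible). In the fit of the region a to region b ratio, Ldhb had a log2 change, neuron over astrocyte, of -0.76 (SE 0.211, edgeR quasi-likelihood adjusted p = 0.052), just short of the threshold. Without neuron 1 it was -1.03 (edgeR adjusted p = 3.03e-06, in a fit that called 2.03% of transcripts) and without neuron 2 -0.48 (edgeR adjusted p = 0.286).

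Mdh1 had 306, 325, 277 and 570 region a counts in the same order of libraries. As percentages of region b they came to 4.77%, 5.09%, 3.61% and 3.63%. The astrocyte mean was 4.93% ± 0.224 and the neuron mean 3.62% ± 0.0139 (SD, n = 2 libraries per group, two-sided exact permutation p = 0.333). The groups did not overlap, but the log2 change of -0.45 (SE 0.202, edgeR quasi-likelihood adjusted p = 0.338) did not pass. Both values have to be read against a shift over the whole table. Among 8870 transcripts the median log2 change of this ratio was -0.21, 70.4% lay below 0, and 1.01% were called with a higher astrocyte ratio and 0.0676% with a higher neuron ratio. Non-overlapping groups with astrocyte above neuron occurred in 30.3% of the 7382 well-counted transcripts, and with neuron above astrocyte in 9.35%. With each region scaled to its own total, which takes out that shift, the log2 changes were -0.52 for Ldhb and -0.21 for Mdh1 (edgeR adjusted p = 0.348 and 0.797).

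**Figure D4:**
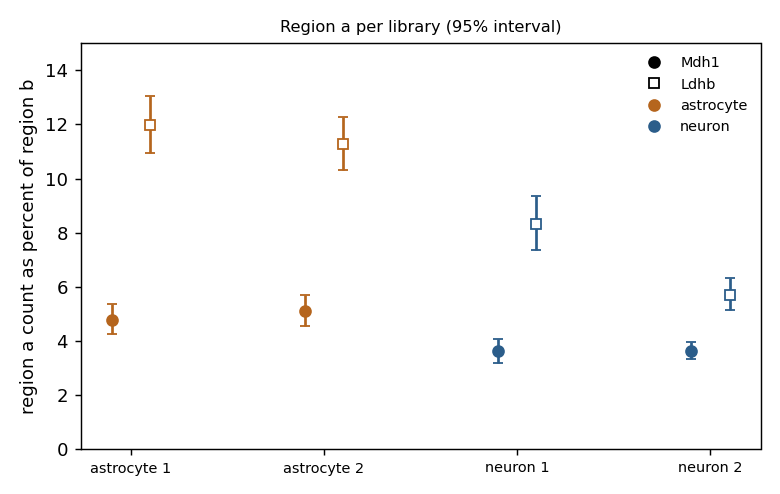
Region a counts as a percentage of region b (y axis) in each library for Mdh1 (filled circles) and Ldhb (open squares), with exact 95% intervals that cover counting error only. Ldhb runs from 11.97% in astrocyte 1 down to 5.70% in neuron 2, and Mdh1 from 5.09% in astrocyte 2 to 3.61% in neuron 1.

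Set against all transcripts, region a of Ldhb, at 9.03% of region b over the 4 libraries, lay near the upper quartile of 9.35%. That of Mdh1, at 4.08%, lay near the median of 4.24%. Ldhb was above Mdh1 in each of the 4 libraries. Here too, region lengths could not be taken into account.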

How the data were processed

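The authors deposited 1 table per library with whole-number counts of footprints per transcript region, each region named by an Ensembl transcript ID and a letter. A region without a line was read as 0. Per the submitters' processing notes, the tools were STAR 2.3.1z8, Bowtie2 2.2.2, Trimmomatic 0.32, edgeR, bedtools and FastQC 0.11.2, with no role stated. Not given in the sources used here are the annotation and its genome build, whether strand was used, the treatment of multiply mapped reads and the meaning of the letters.

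Counts were summed over regions and tested for all transcripts passing filterByExpr (minimum count 10) with the edgeR 4.0.16 quasi-likelihood test (R 4.3.3), TMM factors, cell type as the only term and Benjamini-Hochberg adjustment over all transcripts. The standard error is the size of the log2 change over the square root of F. Region ratios were tested as the interaction of region and cell type with a term per library, both regions sharing the library total, over transcripts whose region a, c or d counts pass the same filter. The level test and the region a and region c ratio tests were also run on simulated counts, with larger changes than those reported here. The region d ratio was not simulated, and no result above rests on the simulation. Intervals are exact Clopper-Pearson at 95%, computed on the share of a region among its own and region b counts and converted to a percentage of region b. Single values were compared with exact permutation tests over libraries. Alternatives included DESeq2 1.42.0. Named transcripts are Mdh1, Ldhb and the nearest profile to each (log2 CPM, prior count 2). The members and lists were chosen with earlier results of these data known. The edgeR and DESeq2 p-values rest on the spread between 2 pools per group, with dispersions partly shared over all transcripts tested. The exact p-values count regroupings of the libraries, or swaps of the 2 transcripts within libraries.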

Additional observations from a re-analysis of the deposited data

How the results depend on the processing

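Of 89 alternative values, 76 kept their direction and side of the threshold, 8 newly passed it and 4 turned sign. In 1, the Ldhb region c percentage without astrocyte 1, which holds its only count, the difference became 0 and has no direction. The exact tests could not pass in any setting, so for them only the direction could change. For the Ldhb level, the log2 change was -0.49 with no filter, -0.56 among transcripts averaging 10 CPM or more and -0.50 with DESeq2, each now past the threshold, and with 1 library left out it ranged from -0.52 to -0.49. The Mdh1 level ranged from 0.23 to 0.38 and the Ldhb region a ratio from -1.03 to -0.48 with 1 library left out. A library left alone in its group was taken to vary like the other group. The Mdh1 region c ratio ranged from -0.951 to 0.0848. The differences of the percentages, neuron minus astrocyte, ranged from -0.33 to 0.031 points for Mdh1 region c, from -0.13 to 0.0101 for Mdh1 region d, where the sign turned without astrocyte 1, and from -0.0843 to 0.0437 for Ldhb region d, where it turned without astrocyte 2. The cause was not tested. With library totals alone in place of TMM factors, which moved the median log2 change of all transcripts from 0.03 to 0.15, the log2 changes were 0.42 for Mdh1 and -0.39 for Ldhb. The alternatives of the Mdh1 to Ldhb ratio were chosen after seeing the data and gave log2 differences of 0.715 to 0.827.

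No label says that equal replicate numbers pair libraries, and the deviations from the group means of libraries with the same number had r = -0.0818 across 18819 transcripts. The replicate block gave log2 changes of 0.30 for Mdh1 and -0.51 for Ldhb (edgeR adjusted p = 0.5 and 0.18) and 3416 calls over all transcripts against 3219 without it. With the replicate block the region a ratio was -0.45 for Mdh1 and -0.76 for Ldhb and the Mdh1 region c ratio -0.49, none past the threshold.

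The region d ratios of both transcripts and the Ldhb region c ratio did not pass the filter on low counts with all 4 libraries, so their alternatives have no value to be set against. Without the filter, the region d ratio had log2 changes of -1.69 for Mdh1 and -0.23 for Ldhb (edgeR adjusted p = 0.906 and 0.945), and the Ldhb region c ratio rests on 1 count. Depth limits regions c and d most, with 1 to 50 counts where any were found.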
